A study of Mus musculus with 14 samples.

Results

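Wild-type mouse monocytes exposed to interleukin-4 (IL-4) were compared with the same cells kept in medium, across all genes of the deposited count table. The 8 libraries are 4 of IL-4-exposed and 4 of medium-only wild-type cells, out of 14 libraries in the series, and they were chosen by their titles alone. Each IL-4 library was paired with the medium library of the same title number (1, 2, 3 or 7), and values below follow that order. The other 6 libraries come from cells deficient for the aryl hydrocarbon receptor (AhR), 3 per condition, and enter only in the test of a difference between genotypes and in 1 alternative fit over all 14 libraries. In every group, monocytes were isolated from leg bone marrow with a magnetic kit, judged 90 to 95% pure by flow cytometry, and cultured ex vivo for 3 h, with 20 ng/mL mouse IL-4 or without it. The labels give neither age, sex nor strain, and do not say whether a title number stands for 1 mouse or for a pool, so p-values measure the spread between these libraries.

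IL-4 is a cytokine of T helper cells and granulocytes that signals through its receptor chains to the transcription factor STAT6, which binds paired TTC and GAA motifs and switches on genes of alternative activation. In monocytes and macrophages the cytokine is best known for inducing arginase, the mannose receptor and chitinase-like and resistin-like proteins, and for opposing inflammatory gene expression. A culture of a few hours captures early transcription together with the decay of short-lived messages. The account here turns to the rest of the response, namely gene families and levels outside those textbook markers.

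The libraries held between 33432502 and 42885079 counts. Defining monocyte genes were high in all 8, with Csf1r and Ly6c2 not called. Csf1r, the receptor that sustains the lineage, had 1535, 1968, 2408 and 2278 CPM in medium and 1619, 1734, 2029 and 1774 CPM with IL-4, where CPM is the number of counts per 1000000 counts of the scaled library. Ly6c2, a classical monocyte marker, had 914, 866, 756 and 778 CPM in medium and 871, 795, 721 and 751 CPM with IL-4. Ccr2, the chemokine receptor of classical monocytes, stood lower in 1 medium library, with 1759, 1447, 1503 and 487 CPM in medium and 1683, 1704, 1665 and 1902 CPM with IL-4. Other monocyte genes moved: of 12 identity genes 1 was called higher and 6 lower, and the summed level of the list, in which Lyz2 is the largest part, was 28700.0, 27900.0, 26400.0 and 28800.0 CPM in medium and 18700.0, 18000.0, 18400.0 and 19200.0 CPM with IL-4. Of 14 genes of classical monocytes, 2 were higher and 6 lower. Their summed level was 20900, 20500, 20900 and 23300 CPM in medium and 22100, 21200, 22100 and 28800 CPM with IL-4, higher in every pair. Beside both lists stand 19.7% higher and 17.5% lower over all genes tested. Defining genes of other cells were low but present. Ly6g of neutrophils reached at most 2.58 CPM and the T cell gene Cd3e 1.85 CPM, while the eosinophil granule gene Prg2 reached 126 CPM and the basophil gene Prss34 148 CPM. Of the 14 neutrophil genes tested, 1 was called higher (Cxcr2) and 0 lower. The summed level of that list was 1460.0, 1360.0, 861 and 776 CPM in medium and 1300.0, 1200.0, 798 and 1220.0 CPM with IL-4. Pair 7 alone had the higher sum with IL-4, and without it 7 of these genes were called lower. Its erythroid sum went from 137 to 32.2 CPM. The part of these other cells in the response was not tested. Over all genes, 5092 were called without pair 7 in place of 5457.

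IL-4 moved a large part of the transcriptome within 3 h, mostly by small steps. Of 14636 genes tested, 5457 (37.3%) passed an adjusted p of 0.05 by edgeR's paired quasi-likelihood test with Benjamini-Hochberg adjustment, 2890 (19.7%) higher and 2567 (17.5%) lower with IL-4. Only 729 (4.98%) rose and 565 (3.86%) fell at least 2-fold, a log2 change of 1 in size, and 2975 of the called genes changed by less than 0.5 on the log2 scale. Libraries of the groups did not overlap for 4898 of all genes tested (33.5%), and 5375 of the called genes had the same sign in all 4 pairs. Genes called higher took 19.9 ± 0.265% of counts in medium and 29.4 ± 0.365% with IL-4, while genes called lower went from 36 ± 0.665% to 25.9 ± 0.0957%, a description that follows from how they were picked. Pairs 2 and 3 weighed most, since 3920 genes were called without pair 2 and 3930 without pair 3. The first principal component held 76.3% of the variance of the 8 libraries and set the IL-4 libraries apart from the medium libraries.

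**Figure D1:**
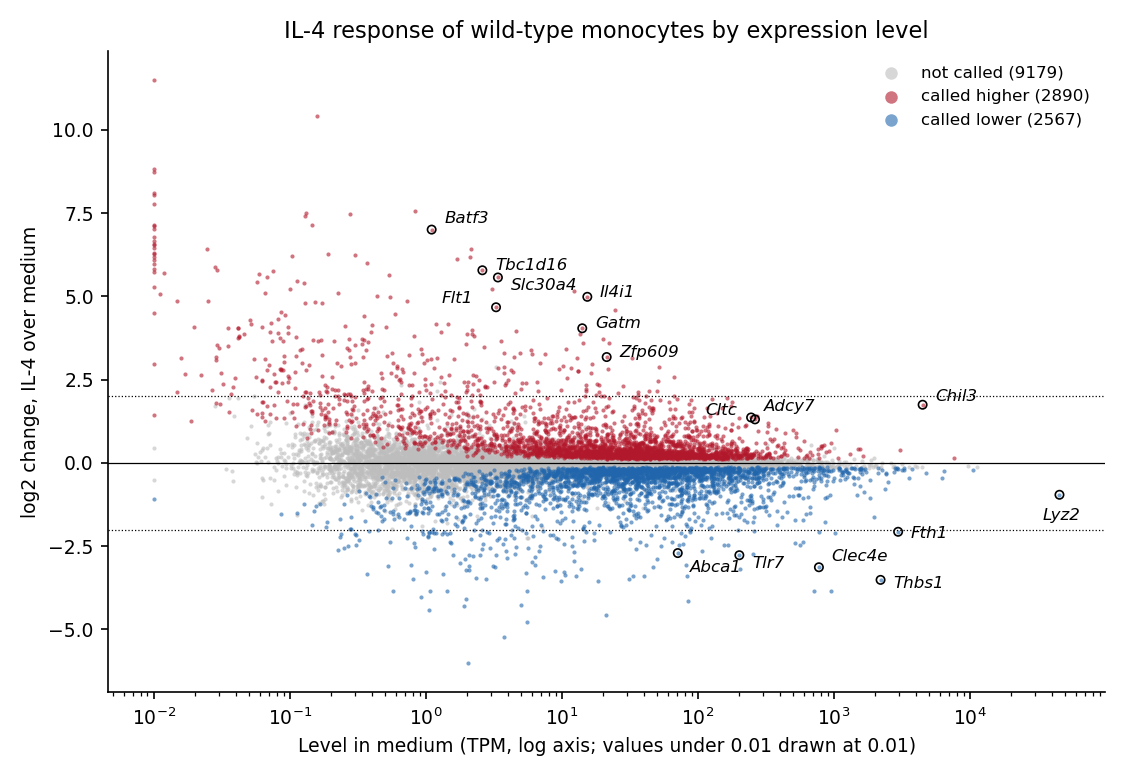
Log2 change with IL-4 (vertical axis) against the level in medium in TPM on a log axis (horizontal axis) (transcripts per 1000000) for the 14636 genes tested, with called genes coloured and 16 genes of the text labelled. Changes of more than 4-fold, outside the dotted lines, lie mostly under 100 TPM, and most called genes lie close to the zero line.

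The split of calls by direction is given here by abundance. Levels between genes are given in TPM, the number of transcripts per 1000000 transcripts, which divides counts by exon length. Genes were classed by their TPM in whichever group, medium or IL-4, was higher. Among the 132 genes over 1000 TPM on that measure, 20 (15.2%) were called higher and 67 (50.8%) lower. Between 10 and 100 TPM the shares were 24.1% and 20.00% of 6498 genes. Under 1 TPM, where fewer counts back each gene, 8.99% were higher and 5.72% lower, with a median rise of 1.77 on the log2 scale among those called. None of the 20 risers over 1000 TPM gained a log2 of 2, while 3 of the fallers, Thbs1, Fth1 and Tlr2, lost as much, and the median fall there was -0.28. The 1675 long non-coding genes, at lower depth, had 8.72% called higher and 11.9% called lower.

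Lyz2, lysozyme of myeloid granules, was the most abundant message by TPM in medium, at 45521 ± 4069.7 TPM in medium and 24520.0 ± 1284 TPM with IL-4, and it fell. Its libraries held 18291, 16836, 14723 and 18164 CPM in medium and 9143, 8302, 8265 and 9248 CPM with IL-4, so every IL-4 library was below every medium library, and it alone accounted for the largest loss in CPM (log2 -0.96 ± 0.05, adjusted p = 4.94e-06). Chil3, a chitinase-like protein that was among the 10 most abundant messages before IL-4, had the largest gain, with 4489.9 ± 432 TPM in medium and 16176 ± 4643 TPM with IL-4. Among the 12 largest gains were also genes with housekeeping or signalling roles. Cltc, the clathrin heavy chain, read 539.8, 634, 679 and 685 CPM in medium and 1491, 1494, 1517 and 1769 CPM with IL-4. Prkcd, a protein kinase C, read 625, 775, 849.9 and 889.5 CPM in medium and 1334, 1544, 1871 and 1514 CPM with IL-4. Adcy7, an adenylyl cyclase that makes cyclic AMP, read 502, 439, 421 and 522 CPM in medium and 1271, 1261, 1130.0 and 1176 CPM with IL-4. In each of these 3 the groups were apart, with log2 changes of 1.31 ± 0.06, 1.0 ± 0.07 and 1.37 ± 0.06 (adjusted p by edgeR 2.33e-06, 1.56e-05 and 2.35e-06). Ahnak, a giant scaffold protein, gained 1259 CPM and C3, the central complement component, 682 CPM.

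Thbs1 (ENSMUSG00000040152.8, chr2:118111876-118127133, plus strand), the matrix glycoprotein thrombospondin, lost the most CPM after Lyz2. Its values were 4048, 4224, 2565 and 4369.8 CPM in medium and 306, 324, 312 and 367 CPM with IL-4 and it dropped in each pair (log2 -3.51 ± 0.12, adjusted p = 5.16e-07). Fth1, the ferritin heavy chain that stores iron, had 2039, 2960.3, 3316 and 3372 CPM in medium and 605, 651, 762 and 728 CPM with IL-4 (log2 -2.07 ± 0.08). Cybb, the catalytic subunit of the phagocyte oxidase, had 2034, 2981, 3841 and 3292 CPM in medium and 1285, 1392, 1693 and 1383 CPM with IL-4 (log2 -1.05 ± 0.09). For both, no IL-4 library reached a medium library. Lcp1, the actin bundling protein of leukocytes, and Vcan, the proteoglycan versican, fell by 1.04 ± 0.06 and 1.0 ± 0.10 on the log2 scale, to 1128 ± 55.5 and 1036 ± 209.6 CPM.

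Inflammatory genes stood among the 25 steepest falls outside the best-known markers. Acod1, the enzyme that makes itaconate, read 16.4, 55.8, 85.1 and 97.4 CPM in medium and 3.99, 1.85, 3.78 and 2.87 CPM with IL-4. Il1b, the cytokine interleukin 1 beta, read 174, 371, 388 and 626 CPM in medium and 21.7, 26.4, 28.3 and 21.9 CPM with IL-4. Gpr84, a receptor for medium-chain fatty acids, read 13.9, 36.1, 39 and 75.7 CPM in medium and 2.73, 3.38, 4.77 and 3.04 CPM with IL-4. Their log2 changes were -4.16 ± 0.44, -3.86 ± 0.26 and -3.4 ± 0.30. Medium library 1 was the lowest of its group for each. Fpr1, a receptor for formylated peptides, the chemokines Cxcl10 and Cxcl2, and Jag1, a ligand of Notch receptors, fell by 3.39 ± 0.15, 3.4 ± 0.42, 2.65 ± 0.28 and 3.38 ± 0.13.

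Outside the best-known markers and under the conditions given for the falls, the steepest rises included membrane, trafficking and secreted proteins. Tbc1d16 (ENSMUSG00000039976.4, chr11:119143045-119228499, minus strand; mm10, GENCODE M21), of the TBC family of RAB GTPase-activating proteins, held 6.25, 5.01, 4.43 and 5.36 CPM in medium and 285, 283, 244 and 354 CPM with IL-4. Slc30a4 (ENSMUSG00000005802.12, chr2:122681233-122702663, minus strand), a transporter that moves zinc into vesicles, held 4.01, 4.65, 5.17 and 7.32 CPM in medium and 245, 218, 284 and 246 CPM with IL-4. Both were scarce in medium and passed 200 CPM with IL-4 on average, by log2 changes of 5.79 ± 0.09 and 5.57 ± 0.14 (adjusted p = 3.01e-08 and 1.2e-07). Il4i1 (ENSMUSG00000074141.13, chr7:44816387-44840809, plus strand), a secreted L-amino acid oxidase, read 9.22, 15, 21.6 and 25.6 CPM in medium and 539, 479, 654 and 499.8 CPM with IL-4 (log2 4.99 ± 0.23, adjusted p = 2.45e-06). Gatm (ENSMUSG00000027199.14, chr2:122594467-122611303, minus strand), which makes the creatine precursor guanidinoacetate from arginine and glycine, read 11.4, 11.8, 14.4 and 10.5 CPM in medium and 188, 158, 266 and 188 CPM with IL-4 (log2 4.04 ± 0.08, adjusted p = 5.56e-08). That the groups did not overlap was a condition of this set. Slc7a2, a transporter of cationic amino acids, and B3gnt7, a glycosyltransferase, rose by 7.47 ± 0.08 and 7.13 ± 0.17 to 127 ± 30.7 and 25 ± 5.2 CPM.

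Several receptors stood in the same set of large rises. Flt1, a receptor for vascular endothelial growth factor, held 14.1, 14.6, 7.43 and 14.3 CPM in medium and 324, 281, 368 and 294 CPM with IL-4 (log2 4.67 ± 0.22). Tarm1, an activating receptor of myeloid cells, held 11.9, 12.1, 14.3 and 19.4 CPM in medium and 326, 296, 336 and 404 CPM with IL-4 (log2 4.58 ± 0.07). Mertk, a receptor tyrosine kinase for the clearance of dead cells, held 0.407, 0.224, 0.615 and 0.496 CPM in medium and 8.21, 8.17, 10.3 and 10.7 CPM with IL-4 (log2 4.41 ± 0.17). No overlap between groups was a condition of this set, and the end levels of the 3 differed widely. Scimp, a transmembrane adaptor of antigen-presenting cells, rose by 4.87 ± 0.15 to 6.58 ± 1.15 CPM, and Cavin1, a coat protein of caveolae, by 5.45 ± 0.24 to 5.25 ± 0.546 CPM. Myo1e, a membrane-linked myosin, Map3k12, a mitogen-activated kinase kinase kinase, and Bcar3, an adaptor of integrin signalling, rose by 3.94 ± 0.17, 3.93 ± 0.17 and 4.99 ± 0.12.

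**Figure D2:**
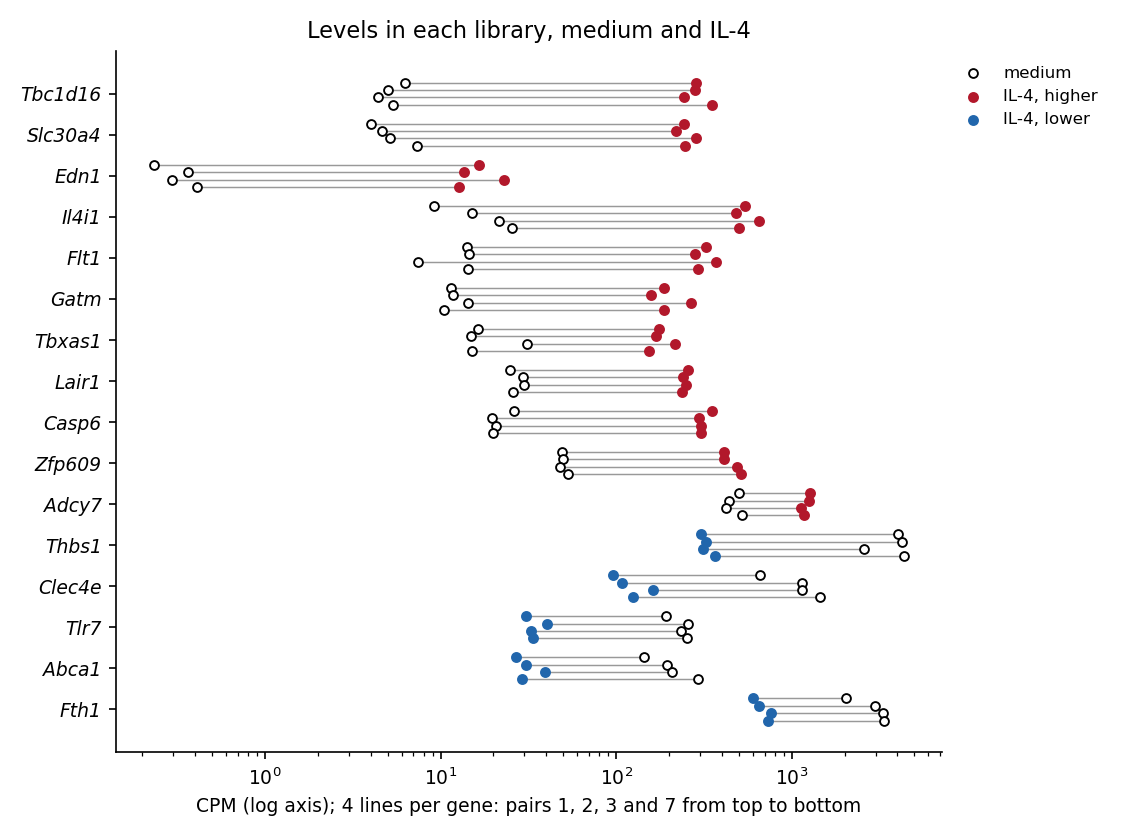
CPM on a log axis in each of the 8 libraries for 16 genes, with medium libraries as open circles, IL-4 libraries as filled circles and lines joining the 2 libraries of a pair. In all 16 genes the 4 IL-4 libraries lie on one side of the 4 medium libraries, from Tbc1d16 at the top of the rises to Thbs1 and Tlr7 among the falls. For those drawn from the 25 steepest rises and falls, this was a condition of entry.

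A few genes were silent or nearly so in medium. Car4, a membrane-bound carbonic anhydrase, had no count in the 4 medium libraries together and 1493 counts with IL-4, at 9.24, 8.6, 8.71 and 12.4 CPM, which is at least 475-fold higher against a floor of 3 counts over the medium group. Insrr, a receptor tyrosine kinase related to the insulin receptor, also went from no count to 225 counts (at least 71.6-fold). H2-M5, a non-classical class I gene, went from no count to 142 counts (at least 45.2-fold), and Tcaf2, a regulator of the TRPM8 channel, from 2 to 173 counts. Their IL-4 levels stayed modest, 1.48 ± 0.782 CPM for Insrr, 0.928 ± 0.267 CPM for H2-M5 and 1.14 ± 0.422 CPM for Tcaf2.

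Promoter windows of RefSeq genes (GRCm38.p6, 250 bases before to 50 after each start, where mm10 is the build of the counts) were searched for the STAT6-type site TTCNNNNGAA, a palindrome that reads alike on both strands. Of the 25 steepest rises picked as above, 22 had a window, and Edn1 and Plekhf1 held the site wholly before the start. The shares of windows given further on count sites anywhere in the 300 bases. In addition 3 other risers of at least 4-fold and 100 CPM with IL-4 held 1 upstream site each, and were picked for print after their values were seen. Tmem26, a further riser of that size, held 2. Edn1 encodes the vasoactive peptide endothelin 1, Plekhf1 an endosomal and lysosomal adaptor, Tbxas1 thromboxane synthase, Tfec a helix-loop-helix factor of the MITF family, and Lair1 an inhibitory collagen receptor. They are printed 5′ to 3′ on the strand of the gene, with the site in capitals, to show the element in genes that rose steeply.
Edn1 (chr13:42301246-42301345, plus strand): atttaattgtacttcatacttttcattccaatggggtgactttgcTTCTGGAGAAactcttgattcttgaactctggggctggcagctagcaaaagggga
Plekhf1 (chr7:38228059-38228158, minus strand): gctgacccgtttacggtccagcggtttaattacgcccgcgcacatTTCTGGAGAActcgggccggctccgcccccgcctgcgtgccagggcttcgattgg
Tbxas1 (chr6:38918820-38918919, plus strand): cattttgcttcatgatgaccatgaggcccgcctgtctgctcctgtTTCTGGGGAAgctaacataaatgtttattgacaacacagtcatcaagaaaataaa
Tfec (chr6:16898587-16898686, minus strand): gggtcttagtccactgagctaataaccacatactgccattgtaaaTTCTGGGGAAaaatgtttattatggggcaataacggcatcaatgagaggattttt
Lair1 (chr7:4063231-4063330, minus strand): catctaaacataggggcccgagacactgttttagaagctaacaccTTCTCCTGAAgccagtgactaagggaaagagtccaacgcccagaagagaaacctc
The site began 185 bases before the start in Edn1, 119 in Plekhf1, 121 in Tbxas1, 200 in Tfec and 81 in Lair1. Edn1 and Plekhf1 carried the same 10 letters, as did Tbxas1 and Tfec.

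Edn1 read 0.233, 0.364, 0.295 and 0.408 CPM in medium and 16.5, 13.5, 22.9 and 12.7 CPM with IL-4. Plekhf1 read 2.88, 2.18, 1.85 and 1.75 CPM in medium and 43, 32.8, 41.4 and 37.6 CPM with IL-4. Both were scarce before IL-4. Tbxas1 read 16.3, 14.8, 30.9 and 15.2 CPM in medium and 174, 168, 217 and 153 CPM with IL-4. Tfec stood at 20.2, 26.8, 30.9 and 27.6 CPM in medium and 188, 193, 237 and 211 CPM with IL-4. Lair1 stood at 24.7, 29.6, 29.9 and 25.8 CPM in medium and 255, 242, 252 and 236 CPM with IL-4. In all 5 the groups were apart, which for Edn1 and Plekhf1 was a condition of entry to the steepest rises. The log2 changes were 5.65 ± 0.19 for Edn1, 4.17 ± 0.11 for Plekhf1, 3.26 ± 0.11 for Tbxas1, 2.98 ± 0.07 for Tfec and 3.16 ± 0.07 for Lair1. Over all 643 windows of genes that rose at least 2-fold, 7.78% held TTCNNNNGAA, against 4.98% of the 462 windows of genes that fell as much and 5.69% of all 12823. At a 4-fold bound the shares were 10.6% of 264 and 1.87% of 107 windows. The site with 1 base less between the motifs, TTCNNNGAA, favoured by other STAT factors, was held by 7.62% of risers, 8.87% of fallers and 7.02% of all windows, and at a 4-fold bound by 9.09% and 8.41%. The E-box CACGTG, which reads alike on both strands, was held by 10.6%, 5.84% and 9.75% at the 2-fold bound, and by 7.95% and 4.67% at the 4-fold bound. At the 4-fold bound the E-box share of risers was below that of all windows. The TTCNNNNGAA share of risers was above that of all windows at both bounds. The CRE TGACGTCA, a cyclic AMP response element, was held by 1.56% of risers, 0.866% of fallers and 2.96% of all windows at 2-fold. At the 4-fold bound it was held by 1.14% and 0.0%. The source of these gaps was not tested. These shares describe windows and most risers had no such match.

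Genes of pattern sensing and of the pathway downstream of it changed in both directions. Counts called in this and later gene lists stand beside 19.7% higher and 17.5% lower over all genes tested. Of 26 genes of nuclear factor kappa B (NF-kB) subunits and their feedback regulators, 17 fell and 3 rose, with a median log2 of -0.55 against 0.01 over all genes. The summed level of the list was 3170, 4900, 5460 and 6210 CPM in medium and 3340, 3600, 4220 and 3380 CPM with IL-4. It was higher with IL-4 in pair 1, whose medium library was the lowest. Inhibitors were among the large falls. Nfkbiz, an atypical inhibitor, read 54.9, 134, 114 and 160.5 CPM in medium and 10.8, 15.3, 14.6 and 11 CPM with IL-4. Nfkbia, the classical inhibitor, read 206, 459.7, 363 and 562 CPM in medium and 102, 118, 116 and 105 CPM with IL-4. The 5 subunits were split. Nfkb1 read 439, 519, 830.1 and 659 CPM in medium and 867, 866, 1184 and 896 CPM with IL-4, and Rel was higher by 0.56 ± 0.15, a call lost without pair 2 or pair 3, where 1 gene of the list was called higher. Rela, Relb and Nfkb2 fell by 0.54 ± 0.08, 1.18 ± 0.12 and 1.1 ± 0.16. Nfkbiz, Nfkbia and Nfkb1 did not overlap between groups (log2 -3.08 ± 0.21, -1.76 ± 0.20 and 0.67 ± 0.09). For Nfkbiz this was a condition of entry to the steepest falls.

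Toll-like receptors and adaptors moved in both directions, 6 higher and 12 lower of 25. Tlr7, the endosomal sensor of single-stranded RNA, read 193, 255, 234 and 254 CPM in medium and 30.5, 40.1, 32.6 and 33.5 CPM with IL-4 (log2 -2.77 ± 0.06, adjusted p = 6.24e-08). Tlr2, which senses bacterial lipopeptides, and its co-receptor Cd14 fell by 2.12 ± 0.19 and 2.09 ± 0.16 on the log2 scale. In contrast Tlr9, the sensor of unmethylated DNA, rose by 0.79 ± 0.08 to 147 ± 14 CPM, Tlr8 by 0.52 ± 0.08 and Tlr4 by 0.37 ± 0.05. The endosomal receptors thus split, with Tlr7 and Tlr13 (log2 -1.26 ± 0.04) lower and Tlr8 and Tlr9 higher.

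Among 23 NOD-like receptor and inflammasome genes, 13 fell and 5 rose (median log2 -0.37, and -0.20 without pair 7). The count of risers was 3 without pair 1, 2 or 3. Nlrc4, an inflammasome scaffold, and Naip2, a sensor that acts with it, fell by 1.45 ± 0.10 and 1.34 ± 0.04 on the log2 scale, while Nlrp1b rose by 0.67 ± 0.05 and Nlrp10 by 2.09 ± 0.16. The Naip genes are near-copies of each other and how reads shared by copies were counted is not given in the sources used here. Interferon-stimulated genes were mixed: 9 higher and 14 lower of 45 (5 higher without pair 2 and 4 without pair 3, and 11 higher and 10 lower without pair 7). Their share of risers, 20.0%, was near the 19.7% over all genes tested, and their share of fallers was 31.1% beside 17.5%. Usp18, a protease that removes ISG15 and restrains interferon receptors, rose by 2.41 ± 0.20 and Irf7 by 1.81 ± 0.09, whereas Ifit3 and Ifitm2 fell by 1.2 ± 0.29 and 0.87 ± 0.05.

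C-type lectins diverged. Clec4e, the mycobacterial glycolipid receptor Mincle, read 659, 1145, 1139 and 1439 CPM in medium and 95.7, 108, 161 and 125 CPM with IL-4. Clec4n, the fungal mannan receptor Dectin-2, read 183, 213, 201 and 318 CPM in medium and 40.01, 38.5, 36.8 and 49.1 CPM with IL-4. Clec7a, the beta-glucan receptor Dectin-1, had 734, 759, 733 and 902 CPM in medium and 1588, 1490.5, 1579.9 and 1475 CPM with IL-4, among the 12 largest gains in CPM. As the Clec4 genes include near-copies, the limit on shared reads given for Naip applies to them and to the CD300 family below. Clec10a, a galactose lectin, rose to 327 ± 22.8 CPM. The log2 change of Clec10a was 2.57 ± 0.08. Receptors for fungal and mycobacterial ligands were found on both sides, with log2 changes of -3.13 ± 0.14 for Clec4e, -2.45 ± 0.08 for Clec4n and 0.98 ± 0.07 for Clec7a. Paired receptors were also divided, 12 higher and 15 lower of 41. In the CD300 family Cd300ld, Cd300lf and Cd300lb rose by 1.92, 1.94 and 1.2, and Cd300e fell by 2.38 ± 0.26. Trem1, an amplifier of inflammatory signals, fell by 2.46 ± 0.12 and Treml4 by 2.45 ± 0.24. Fcgr2b, the inhibitory Fc receptor, rose by 1.91 ± 0.07 to 782 ± 44.7 CPM, while the activating receptors Fcgr1 and Fcgr4 fell by 0.43 ± 0.06 and 0.87 ± 0.12.

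Calls among secreted factors split by class. Of 39 growth factor genes, 22 passed the count filter, which a gene can pass through the libraries of 1 group alone. Of these 22, 13 rose and 2 fell, with a median log2 of 0.92. The summed level of the list changed little, with 1420, 1460, 1500 and 1580 CPM in medium and 1460, 1480, 1590 and 1590 CPM with IL-4. Pdgfa, a platelet-derived growth factor chain, read 1.42, 1.2, 2.07 and 2.42 CPM in medium and 26.4, 22.2, 28.6 and 27.2 CPM with IL-4 (log2 3.89 ± 0.13, adjusted p = 3.88e-07). Igf1, insulin-like growth factor 1, read 0.145, 0.196, 0.64 and 0.262 CPM in medium and 2.68, 3.38, 4.9 and 6.19 CPM with IL-4 (log2 3.77 ± 0.27). Each IL-4 library exceeded each medium library, which for Pdgfa was a condition of entry to the steepest rises, and both genes stayed below 50 CPM. Hbegf and Fgf2 rose to lower levels, 2.47 ± 0.338 and 1.97 ± 0.259 CPM with IL-4, and Vegfa fell by 1.17 ± 0.09.

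Of 17 cytokine genes, 9 fell and 2 rose. Tnf read 34.8, 109, 82 and 154 CPM in medium and 9.16, 9.03, 9.78 and 9.26 CPM with IL-4 (log2 -3.18 ± 0.30), and Il15, which sustains natural killer cells, fell by 0.89 ± 0.13. Csf1, the macrophage growth factor, went the other way with 72.2, 59.6, 44.1 and 87 CPM in medium and 246, 177, 212 and 196 CPM with IL-4 (log2 1.69 ± 0.15), as did Osm by 0.73 ± 0.13. Chemokine ligands numbered 3 higher and 8 lower of 19. Cxcl16, a membrane-bound chemokine and scavenger receptor, read 99.9, 183, 302 and 290.3 CPM in medium and 22.3, 28.5, 49 and 27.2 CPM with IL-4 (log2 -2.72 ± 0.17), and Ccl24, an eosinophil attractant, rose by 3.59 ± 0.24 to 88.2 ± 19.5 CPM. Among receptors, Cx3cr1, the fractalkine receptor of patrolling monocytes, read 546, 711, 916 and 848 CPM in medium and 189, 252, 267 and 198 CPM with IL-4 (log2 -1.73 ± 0.10).

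Cytokine receptors rose in 14 and fell in 12 of 48 cases, a balance that was reversed without pair 1. Lifr, the leukaemia inhibitory factor receptor, rose by 2.49 ± 0.10 to 42.3 ± 2.18 CPM and Il31ra by 2.6 ± 0.22 to 22.5 ± 3.56 CPM. Il17ra, the shared interleukin-17 receptor chain, fell by 1.78 ± 0.06 to 183 ± 14.3 CPM, and Ifnlr1, the interferon lambda receptor, by 2.96 ± 0.27. Among chemoattractant receptors, Gpr183, the oxysterol receptor, rose by 1.39 ± 0.07 and Ffar2, a short-chain fatty acid receptor, by 3.83 ± 0.16, while Fpr2 fell by 2.45 ± 0.16 and C5ar1 by 1.52 ± 0.09. C3ar1, the receptor for the other complement anaphylatoxin, rose by 1.34 ± 0.09.

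Several families showed 1 member up and a close relative down. Ptgs1, the constitutive cyclooxygenase, read 3.84, 6.22, 12.8 and 3.12 CPM in medium and 47.1, 58.8, 86.3 and 58.4 CPM with IL-4. Ptgs2, the inducible form, read 8.29, 15.2, 12.5 and 17.8 CPM in medium and 2.37, 1.85, 3.06 and 2.52 CPM with IL-4. Abcg1 and Abca1, cholesterol exporters of the same pathway, moved apart. Abcg1 read 87.6, 84.4, 66.4 and 68.7 CPM in medium and 185, 214, 204 and 213 CPM with IL-4. Abca1 read 145, 194, 207 and 294 CPM in medium and 26.8, 30.6, 39.1 and 28.9 CPM with IL-4. Enzymes that set the activity of phosphofructokinase did likewise. Pfkfb4 stood at 109, 85.6, 79.3 and 86.2 CPM in medium and 222, 229.7, 239 and 229 CPM with IL-4. Pfkfb3 stood at 68.3, 65.6, 66.6 and 61.5 CPM in medium and 23.8, 26.1, 22.8 and 27.9 CPM with IL-4. With IL-4, Ptgs1, Abcg1 and Pfkfb4 stood above their relatives in all 4 libraries.

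These and other such pairs were picked after their values were seen. The log2 changes were 3.38 and -2.42 for Ptgs1 and Ptgs2, 1.42 and -2.71 for Abcg1 and Abca1, and 1.36 and -1.38 for Pfkfb4 and Pfkfb3. The lactate transporters Slc16a1 and Slc16a3 changed by 1.67 and -1.32, and the hexokinases Hk3 and Hk2 by 1.18 and -0.38. The beta integrins Itgb3 and Itgb5 changed by 2.81 and -1.5, and the purine receptors P2ry1 and P2ry13 by 2.76 and -1.83. The phosphodiesterases Pde7b and Pde3b changed by 2.27 and -1.56, the phosphatases Dusp5 and Dusp6, both of which act on ERK kinases, by 1.66 and -2.26, and the phosphoribosyl pyrophosphate synthetases Prps1 and Prps2 by 2.45 and -0.31. Each of these 20 changes passed the paired edgeR test with Benjamini-Hochberg adjustment, with adjusted p at or under 0.0208. Those of Hk2 and Prps2 were lost without pair 1, 2 or 3.

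**Figure D3:**
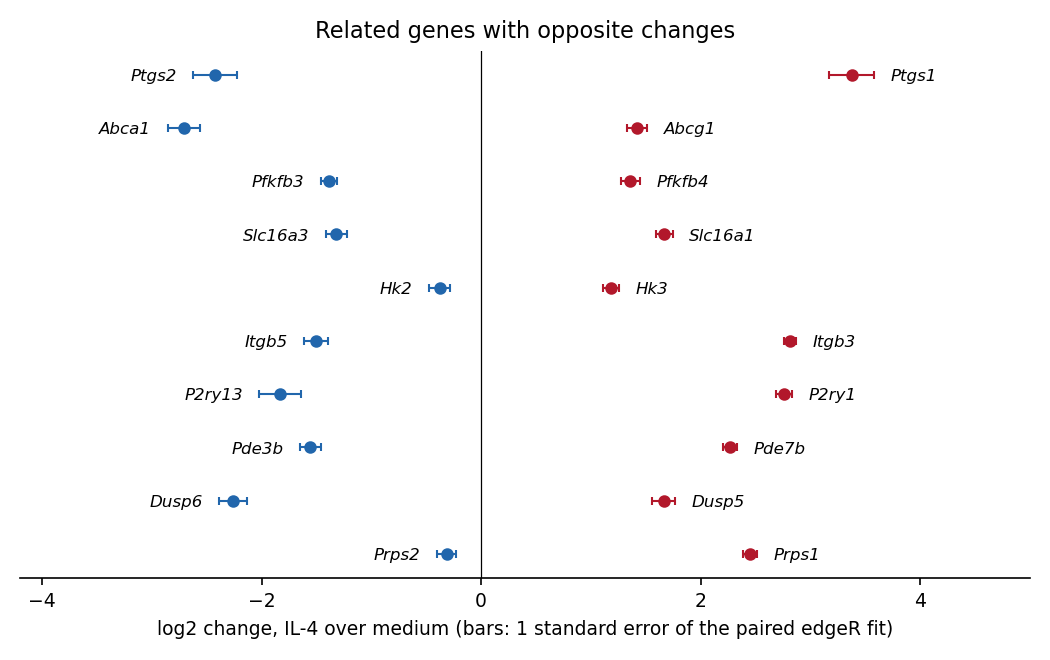
Log2 change with IL-4 (horizontal axis) for 10 pairs of related genes, with the riser and the faller of a pair on one row and bars of 1 standard error from the paired edgeR fit. The faller lies left and the riser right of zero in every row, from the Ptgs pair to the Prps pair.

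Signal relays also went both ways. Of 18 dual-specificity phosphatases, 5 rose and 5 fell (3 lower without pair 2 or pair 3). Dusp22 rose by 1.47 ± 0.06 to 166 ± 7.31 CPM and Dusp1, an early inflammatory brake, fell by 1.69 ± 0.18. In the phosphoinositide 3-kinase pathway, 10 of 37 genes rose and 11 fell (13 higher and 11 lower with all 14 libraries). The insulin receptor substrate Irs2 and the regulatory subunit Pik3r1 rose by 1.56 ± 0.04 and 0.60 ± 0.05, while the G-protein-coupled enzyme fell in both its chains, Pik3cg by 0.97 ± 0.04 and Pik3r5 by 1.16 ± 0.13. GTPase exchange factors included Dock10, higher by 1.31 ± 0.05 at 790.05 ± 22.9 CPM, and Arhgef3, lower by 2.47 ± 0.14. Rgs1 and Rgs2, which switch off G proteins, fell by 1.03 ± 0.17 and 0.61 ± 0.09.

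Among transcription factors outside the best-known list, Batf3, a partner of IRF proteins in dendritic cell development, read 0.32, 0.308, 0.96 and 0.408 CPM in medium and 57.6, 59.6, 88.3 and 53.9 CPM with IL-4 (log2 7.01 ± 0.14). Cebpa, a driver of myeloid differentiation, rose by 1.7 ± 0.09 to 424 ± 53.8 CPM, while its relatives Cebpb and Cebpd fell by 0.50 ± 0.07 and 1.52 ± 0.07. Zfp609 read 49.2, 50.02, 47.9 and 53.5 CPM in medium and 412, 411, 487 and 515 CPM with IL-4 (log2 3.18 ± 0.07), the steepest well-expressed member of 300 zinc finger genes of which 28 rose and 46 fell (17 and 27 without pair 2, 18 and 27 without pair 3). The called shares of this list, 9.33% and 15.3%, were below those of all genes tested, 19.7% and 17.5%. Of 30 nuclear receptors and coregulators, 14 rose and 8 fell. Vdr, the vitamin D receptor, and Rara, a retinoic acid receptor, rose by 1.47 ± 0.07 and 1.07 ± 0.08, and Nr1h3 (LXR alpha) fell by 1.5 ± 0.10. Circadian clock genes fell in 9 of 18 cases (5 without pair 2), Nr1d1 by 1.32 ± 0.24 and Rora by 0.70 ± 0.06, with Nfil3 higher by 1.65 ± 0.09 at 211 ± 15.6 CPM. Tcf7l2, the WNT pathway factor, rose by 2.37 ± 0.13. Of 42 chromatin regulators, 13 rose and 2 fell, and without pair 2 or pair 3 only 7 were higher. Tet2 rose by 0.86 ± 0.08, Dnmt3a by 1.04 ± 0.05 and Kdm2b by 1.01 ± 0.04.

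Genes that build ribosomes rose while those for the ribosome's own proteins did not. Of 54 ribosome biogenesis and RNA polymerase I genes, 42 rose and 3 fell (median log2 0.40). Their share of all counts was 0.307, 0.297, 0.302 and 0.289% in medium and 0.368, 0.359, 0.375 and 0.383% with IL-4, without overlap. Gar1, of the pseudouridylation complex, rose by 1.32 ± 0.07, and Nolc1, a nucleolar scaffold, by 0.93 ± 0.05. Of 78 cytosolic ribosomal protein genes, 0 rose and 42 fell, each by a small step (median log2 -0.15). Their share was 4.47, 3.84, 3.8 and 3.84% in medium and 3.79, 3.42, 3.6 and 3.76% with IL-4, and here the groups nearly touched: pair 7 differed by under 0.1 percentage points. The number of falls rested on the pairing and on single pairs, with 22 called without the pairing, 20 without pair 1, 7 without pair 2 and 26 without pair 3, though none was called higher in any of these fits.

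Genes that charge transfer RNA rose as well. Of 23 tRNA synthetases, 20 rose and 0 fell (median log2 0.30), led by Dars for aspartate at 0.90 ± 0.05. Of 63 RNA modification enzymes, 19 rose and 1 fell, with the transfer RNA methyltransferases Mettl1 and Trmt61a higher by 1.25 ± 0.13 and 1.17 ± 0.09. Helicases of the DDX and DHX families rose in 21 of 52 cases and nuclear pore and transport genes in 20 of 53, with 4 (2 without pair 2) and 2 lower. The pore and transport count dropped to 9 without pair 2 and 8 without pair 3. Eif2b2, a subunit of the exchange factor for initiation, stood out among translation factors with 50.7, 45.6, 45.8 and 42.4 CPM in medium and 159, 159.7, 153 and 154 CPM with IL-4 (log2 1.76 ± 0.05). Mitochondrial ribosomal proteins rose in 25 of 77 cases and fell in 4, with 15 higher without pair 2 and 12 without pair 3.

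The secretory pathway rose by small steps in many members. ER chaperones and unfolded protein response genes rose in 16 of 29 cases and fell in 1 (median log2 0.24). Hyou1 and Pdia4, folding factors of the ER, rose by 0.66 ± 0.06 and 0.66 ± 0.09, and the factor Xbp1 by 0.60 ± 0.05. Coat and cargo genes of vesicles between ER and Golgi rose in 21 of 40 and fell in 2, and oligosaccharyltransferase and translocation genes rose in 14 of 34 with 0 lower (7 higher without pair 3). Stt3b, a catalytic subunit of the transferase, rose by 0.82 ± 0.05. Cytosolic chaperones rose in 15 of 26, with Fkbp5, a co-chaperone of steroid receptors, at 1.54 ± 0.05, while Hspa8, the constitutive chaperone, fell by 0.42 ± 0.05.

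**Figure D4:**
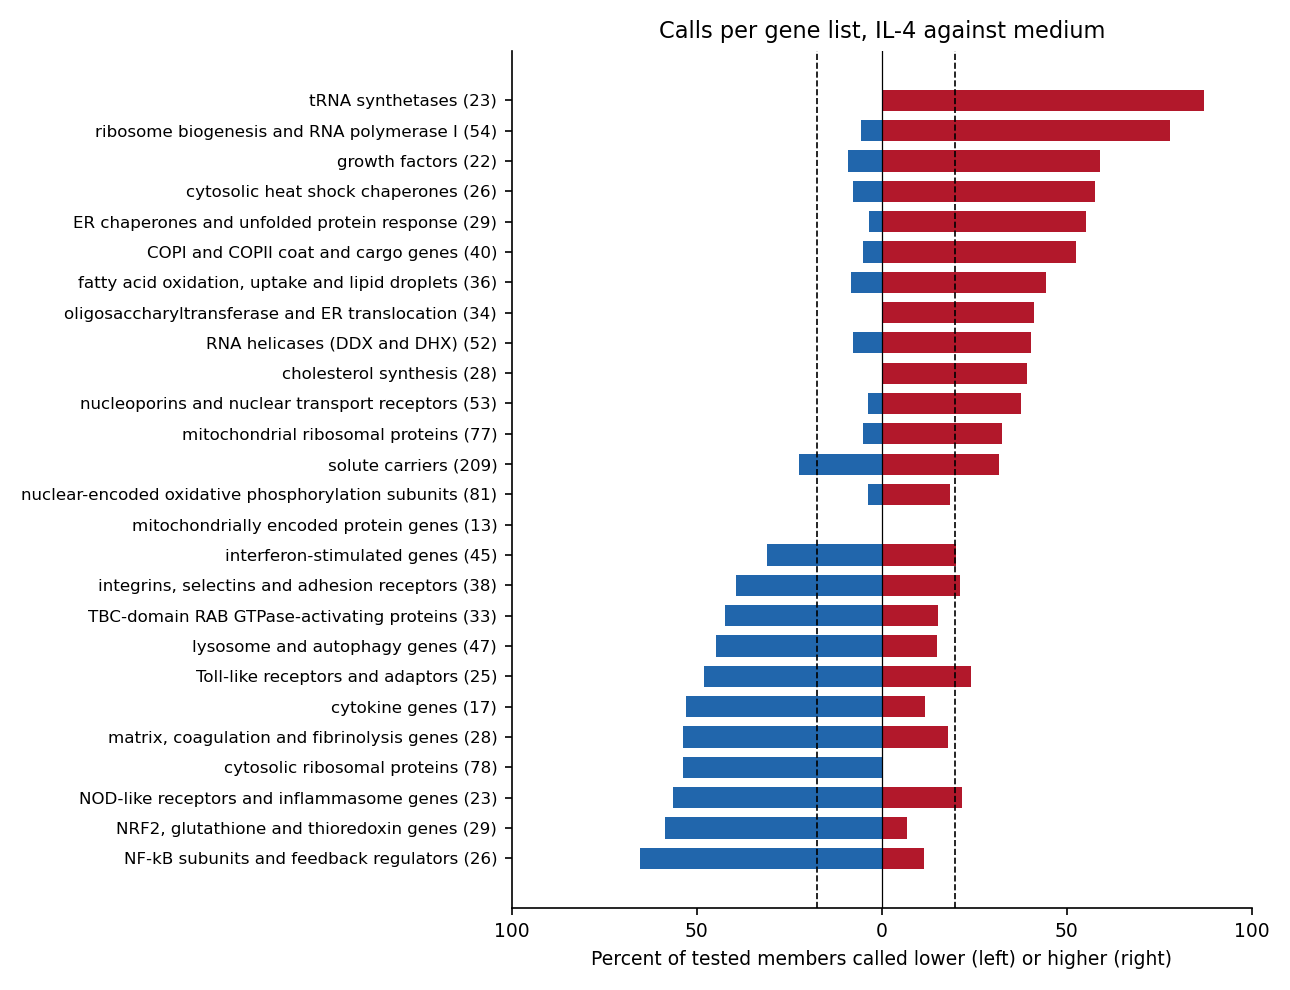
Percent of tested members called higher (right) and lower (left) with IL-4 for 26 gene lists, with the number tested in brackets and dashed lines at the shares over all genes tested, 19.7% and 17.5%. Ribosome biogenesis, tRNA synthetase and secretory lists extend to the right, and NF-kB, NRF2 and cytosolic ribosomal protein lists to the left.

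Lysosome and autophagy genes went the other way, 21 lower and 7 higher of 47. Sqstm1, an autophagy receptor, fell by 1.03 ± 0.11 and the kinase Ulk1 by 0.74 ± 0.06, while Mitf, a factor for lysosomal genes in some cells, rose by 0.90 ± 0.05. The proton pump was uneven, with 6 of 18 subunits higher and 4 lower (4 higher and 5 lower by DESeq2). Among the risers was Atp6v0a1, higher by 1.58 ± 0.06 at 252 ± 43.4 CPM. TBC-domain genes fell in 14 of 33 cases (7 without pair 2) and rose in 5, Tbc1d16 and Tbc1d17 (log2 0.96 ± 0.06) among them. Sorting nexins held rises of 1.65 ± 0.06 for Snx8 and 1.35 ± 0.05 for Snx2, and Rab8b, a small GTPase of membrane traffic, rose by 0.55 ± 0.07 to 754 ± 26.5 CPM. Rab7b and Rab32 fell by 1.92 ± 0.08 and 1.48 ± 0.06. Of the cathepsins, Ctss rose by 0.39 ± 0.05 and Ctsd fell by 0.46 ± 0.07.

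Antioxidant genes fell together. Of 29 genes of the NRF2, glutathione and thioredoxin systems, 17 fell and 2 rose (median log2 -0.29). Slc7a11, the cystine importer, read 28.5, 59.9, 80.04 and 82.9 CPM in medium and 14.9, 16.6, 21.7 and 16.7 CPM with IL-4 (log2 -1.76 ± 0.19). Prdx6, a peroxiredoxin, read 313, 353, 329.9 and 379 CPM in medium and 145, 142, 158 and 155 CPM with IL-4 (log2 -1.19 ± 0.06). Neither overlapped. Among selenoproteins and their makers, Txnrd1, Msrb1 and Sephs2 fell by 0.96 ± 0.13, 1.03 ± 0.06 and 1.44 ± 0.06.

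Iron genes changed in both directions, with more falls than rises. Of 25 iron and haem genes, 5 rose and 10 fell. The share of risers, 20.0%, was near the 19.7% over all genes tested, and that of fallers was 40.0% beside 17.5%. Tfrc, the transferrin receptor for uptake, rose by 1.05 ± 0.06 and Hfe, which binds it, by 1.23 ± 0.04. Slc11a1, the phagosomal metal transporter, and Slc25a37, the mitochondrial iron importer mitoferrin, fell by 1.33 ± 0.08 and 2.17 ± 0.14. Hmox1, which breaks down haem, fell by 1.15 ± 0.07, while Flvcr1, which was first described as a haem exporter, read 26.2, 27.4, 30.6 and 25.2 CPM in medium and 123, 135, 167 and 131 CPM with IL-4 (log2 2.34 ± 0.05). For zinc, Slc30a1, the exporter of the plasma membrane, rose by 2.0 ± 0.10 and Slc39a14, an importer, fell by 1.41 ± 0.13.

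In lipid metabolism, genes of fatty acid uptake, oxidation and storage rose in 16 of 36 cases and fell in 3. Lpl, lipoprotein lipase, read 205, 213, 608 and 362 CPM in medium and 641, 553, 964 and 585 CPM with IL-4 (log2 1.09 ± 0.16), with overlapping groups and an adjusted p of 0.0504 by edgeR without the pairing. The scavenger receptor Cd36 rose by 1.18 ± 0.11 and the fatty acid carrier Fabp5 by 2.14 ± 0.08. Cpt1a, the gate of mitochondrial oxidation, was lower by 0.41 ± 0.09. Cholesterol synthesis genes rose in 11 of 28 cases with 0 lower (7 higher without pair 2), among them Sqle (squalene epoxidase) by 0.71 ± 0.11. Apoe, the lipid carrier, fell by 1.62 ± 0.15 to 390.5 ± 86 CPM. Pla2g12a, a secreted phospholipase, rose by 3.81 ± 0.08, and Sphk1, sphingosine kinase, by 4.33 ± 0.27 at a low level of 2.27 ± 0.391 CPM.

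In carbon metabolism, glycolysis genes fell in 11 and rose in 4 of 27 cases (7 lower without pair 1 and 6 without pair 2), with Pfkp, a phosphofructokinase, higher by 0.99 ± 0.06. Nuclear-encoded respiratory subunits rose in 15 of 81 cases and fell in 3, a share of risers below that of all genes tested (7 higher without pair 2 and 6 without pair 3). Of the 13 mitochondrially encoded genes, edgeR called 0, at a median log2 of -0.10, where 4 had an unadjusted p under 0.05 by edgeR, and DESeq2 and limma-voom called 3 and 1. Nucleotide synthesis rose in 12 and fell in 5 of 32 cases, with Uck2, a uridine-cytidine kinase, at 152, 140.5, 120.4 and 154 CPM in medium and 458, 399, 342 and 431 CPM with IL-4 (log2 1.52 ± 0.04). The kynurenine enzymes Kmo and Kynu rose by 1.62 ± 0.07 and 1.58 ± 0.09, and Srm, spermidine synthase, by 1.56 ± 0.10.

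Sugar-modifying enzymes included steep rises on glycolipids and glycoproteins. St8sia1, which makes the ganglioside GD3, read 2.24, 1.48, 1.03 and 1.57 CPM in medium and 37.9, 34.2, 29.7 and 35.6 CPM with IL-4. St6gal1, which adds sialic acid to N-glycans, read 3.61, 6.33, 5.59 and 5.28 CPM in medium and 23.9, 31.9, 33.9 and 45.8 CPM with IL-4. Both were higher in all 4 pairs (log2 4.46 ± 0.11 and 2.69 ± 0.12). St3gal5, which makes the ganglioside GM3 used by St8sia1, fell by 2.03 ± 0.05 to 15.9 ± 0.427 CPM. Over 78 glycosyltransferase genes, 18 rose and 25 fell.

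Adhesion and motility genes fell more often than they rose. Integrins, selectins and other adhesion receptors numbered 15 lower and 8 higher of 38, and actin genes 18 lower and 6 higher of 43. Itga4, the alpha chain of the VCAM1 receptor, read 684, 872, 889.8 and 857 CPM in medium and 382, 416, 375 and 299 CPM with IL-4 (log2 -1.17 ± 0.10). Pecam1, an adhesion molecule of leukocytes and endothelium, read 23, 31.2, 18.1 and 20.3 CPM in medium and 159, 179, 135 and 144 CPM with IL-4 (log2 2.76 ± 0.07). The endothelial genes Cdh5 and Kdr stayed under 1 CPM in all 8 libraries. Marcks and Marcksl1, membrane-linked actin regulators, fell by 1.3 ± 0.14 and 1.7 ± 0.21, and Gsn, gelsolin, rose by 1.42 ± 0.05. Matrix and coagulation genes fell in 15 of 28 cases and rose in 5 (3 without the pairing). Plau, urokinase, and F7, coagulation factor VII, rose by 2.9 ± 0.10 and 1.65 ± 0.05, and F5, factor V, fell by 1.11 ± 0.05.

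Survival and cycle genes were divided. Casp6, an executioner caspase, read 26.1, 19.5, 20.7 and 19.8 CPM in medium and 351, 298, 304 and 303 CPM with IL-4. Bcl2l11, the pro-apoptotic protein BIM, read 91.3, 103, 106 and 113 CPM in medium and 377, 396, 420.2 and 350.1 CPM with IL-4. Both rose in every pair (log2 3.87 ± 0.05 and 1.9 ± 0.07), whereas Pmaip1 (NOXA) and the death receptor Fas fell by 1.65 ± 0.15 and 2.21 ± 0.22. So did the survival genes Cflar and Birc3, by 0.97 ± 0.12 and 1.37 ± 0.14. Cdk6, a kinase of the early cell cycle, rose by 1.34 ± 0.12, and mitosis and replication genes rose in 12 of 41 with 0 lower (7 higher without pair 2), none beyond 0.60 ± 0.05 of Mcm6. Genes of non-classical monocytes fell in 10 of 15 cases and rose in 3, Treml4 and Adgre4 by 2.45 ± 0.24 and 1.5 ± 0.16 among the falls, beside 17.5% lower over all genes tested. The identity and classical monocyte genes, given above, also held more falls than rises, while the summed level of the classical list was higher in every pair. A difference between these lists was not tested. In bulk libraries, fewer cells of a type and less RNA per cell cannot be told apart.

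Membrane transporters changed in both directions. Of 209 solute carriers, 66 rose and 47 fell. Slc17a5, the lysosomal sialic acid exporter, rose by 2.13 ± 0.06 to 163 ± 12.7 CPM, and Slc16a10, an aromatic amino acid transporter, fell by 2.07 ± 0.11 to 42.2 ± 5.3 CPM. Of 64 ion channel genes, 22 rose and 11 fell, with the endosomal chloride and proton exchanger Clcn5 at 45.1, 50.3, 48.6 and 47.7 CPM in medium and 181, 185, 217 and 194 CPM with IL-4 (log2 2.02 ± 0.06) and the potassium channel Kcnj2 lower by 2.5 ± 0.18.

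Antigen presentation genes changed in both directions. Of 21 class II and costimulation genes, 9 rose and 4 fell, among them Ciita, the master regulator of class II, higher by 1.21 ± 0.22, and the costimulatory ligands Cd80 and Icosl, lower by 1.32 ± 0.21 and 1.45 ± 0.12. Cd40, a receptor for T cell help, rose by 0.81 ± 0.21, but the adjusted p by edgeR was 0.109 without the pairing, 0.0649 without pair 2 and 0.0598 without pair 3. Of 21 class I genes, 6 rose and 7 fell. The risers numbered 2 without the pairing, 2 without pair 2 and 1 without pair 3, and the fallers 4 without pair 2. The near-copies H2-Q6 and H2-Q7 overlapped between groups and were lower by 1.14 ± 0.32 and 0.89 ± 0.22, with an adjusted p of 0.0681 for H2-Q6 without pair 2, 0.0548 without pair 3, and 0.0724 for H2-Q7 without the pairing. Proteasome genes rose in 16 of 49 cases and fell in 2, with 9 higher without pair 2 and 10 without pair 3, led by the assembly chaperone Psmg1 at 1.37 ± 0.09.

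Named non-coding genes were called in both directions. Of 28 small nucleolar RNA hosts and named long non-coding genes, 2 rose (4 without pair 7) and 8 fell, beside 19.7% and 17.5% of all genes tested. Mir155hg, the host transcript of an inflammatory microRNA, read 1.34, 1.6, 2.17 and 4.87 CPM in medium and 0.283, 0.343, 0.346 and 0.143 CPM with IL-4 (log2 -2.97 ± 0.41), so that it was near 0 with IL-4. Dleu2 and Mir22hg fell by 0.73 ± 0.06 and 0.67 ± 0.15, and Snhg17 rose by 0.47 ± 0.07.

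The response was set beside that of AhR-deficient cells, 3 pairs under the same dose and time, by a test of the difference itself. With edgeR's paired interaction test, 0 of 15104 genes passed an adjusted p of 0.05, and 1252 had an unadjusted p under 0.05. DESeq2 called 59 and limma-voom 0. The smallest adjusted p belonged to Tlr7, at 0.0919, where the log2 change was -2.77 in wild-type and -2.19 in AhR-deficient cells. No gene above is therefore described as particular to wild-type cells.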

How the data were processed

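RNA from bone marrow monocytes was sequenced as paired 100-base reads from a stranded mRNA library kit, per the labels' protocols. The authors deposited 1 table of raw counts per Ensembl gene identifier. FastQC, STAR and the mm10 build are named in the submitters' processing notes; the counting tool, its strand setting and its treatment of reads shared by copies were not stated in the labels used here. Of 55487 identifiers, 55394 matched GENCODE M21 (55094 with version), which supplied symbols, positions and exon lengths. TPM was computed over the tested genes only, from union exon length.

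The 8 wild-type libraries held 33432502 to 42885079 counts. Genes passing edgeR's filterByExpr (14636) were scaled by TMM and tested with edgeR 4.0.16 (R 4.3.3) by the quasi-likelihood F-test with the title number as a block, then adjusted by Benjamini-Hochberg, with calls at an adjusted p under 0.05. Standard errors are the log2 change over the square root of F. Same-numbered libraries deviated together from their group means, with correlations of 0.525, 0.496, 0.707 and 0.212 for numbers 1, 2, 3 and 7 over 10663 genes, so the block was kept. Replicates differed beyond sampling noise (chi-square per degree of freedom 17.1 to 60.2). The difference between genotypes was an interaction term over all 14 libraries.

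The genes named were drawn from the sets of a rule, not all of which are printed: the 25 largest rises and falls outside the best-known genes, the 12 largest gains and losses in CPM, up to 5 called rises and falls per list, 10 genes silent in medium and the 10 most abundant, with list members not called given as values. Tmem26, Tbxas1, Tfec and Lair1 as promoters, the NF-kB subunits Rela, Relb and Nfkb2, and the pairs of related genes, were chosen after their values were seen. The comparison, the 122 gene lists and the rule were chosen with earlier results of these data known. Alternatives were no block, all 14 libraries, other scalings, DESeq2 1.42.0, limma-voom (limma 3.58.1), other filters and each pair left out.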

Additional observations from a re-analysis of the deposited data

Results flagged for a closer look

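In a few genes named above, 1 library of a group stood apart from the other 3 by Dixon's test, 27 of 478 groups of 4 libraries. Chance alone flags about 1 in 20 groups, and no explanation was tested. Of the IL-4 libraries, 1 lay above the rest in CPM for Batf3 with 88.3 in number 3 (others 53.9 to 59.6), Car4 with 12.4 in number 7 (others 8.6 to 9.24) and Casp6 with 351 in number 1 (others 298 to 304). The same held for Ccr2 with 1902 in number 7 (others 1665 to 1704), Cd3e with 1.36 in number 3 (others 0.0287 to 0.0915) and Cebpb with 663 in number 3 (others 516 to 527). Further such genes were Cltc with 1769 in number 7 (others 1491 to 1517), Ifnlr1 with 2.88 in number 2 (others 1.39 to 1.44) and Myo1e with 52.8 in number 7 (others 23.5 to 27.9). So it was for Nfkb1 with 1184 in number 3 (others 866 to 896) and Sqstm1 with 343 in number 3 (others 277 to 288). Of the IL-4 libraries, 1 lay below the rest in CPM for Pde3b with 41.2 in number 3 (others 47.8 to 48.7) and Tfrc with 53.6 in number 3 (others 65.9 to 67.5). Of the medium libraries, 1 lay above the rest in CPM for Batf3 with 0.96 in number 3 (others 0.308 to 0.408), Clec7a with 902 in number 7 (others 733 to 759) and Dusp22 with 65.6 in number 1 (others 57 to 58.1). The same held for Mettl1 with 7.31 in number 3 (others 4.7 to 5), Prps1 with 30.9 in number 2 (others 27.9 to 28.4) and Tbxas1 with 30.9 in number 3 (others 14.8 to 16.3). Further such genes were Tlr9 with 122 in number 3 (others 71.2 to 79.6). Of the medium libraries, 1 lay below the rest in CPM for Ctss with 1073 in number 3 (others 1202 to 1208), Flt1 with 7.43 in number 3 (others 14.1 to 14.6) and Gar1 with 6.56 in number 7 (others 7.39 to 7.44). The same held for H2-Q6 with 27.5 in number 1 (others 48.1 to 50.6), Itga4 with 684 in number 1 (others 857 to 889.8) and Pde3b with 91.4 in number 3 (others 154 to 158). Further such genes were Tlr13 with 245 in number 1 (others 307 to 308).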

How the results depend on the processing

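The paired fit called 5457 genes, and without the replicate block 4695 were called, 4559 of them shared. Counts ran from 3920 to 5092 with 1 pair left out, and from 4975 to 6298 over the other fits (all 14 libraries, DESeq2 size factors, upper-quartile scaling, DESeq2, limma-voom, and both low-count filters). No gene called in the paired fit had the opposite sign in any of these 12 fits. Between 50.8% and 53% of calls were higher with IL-4. For the difference between genotypes, edgeR called 0 genes in the paired fit, without the block and without number 2, 3, 4, 5 or 6. It called 1 without number 1 and 7 without number 7. With limma-voom 0 were called and with DESeq2 59, so the range over all these fits was 0 to 59. The cause was not tested.

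List counts depended most on pairs 2 and 3: of 104 list counts, 27 moved by over 1.5 times without pair 2, 21 without pair 3, 8 without pair 1, 4 without pair 7 and 6 without the block. Among small counts not detailed above, ribosome biogenesis went from 3 lower to 0 without pair 2, mitochondrial ribosomal proteins from 4 lower to 2 and respiratory subunits from 3 lower to 1 without that pair, and nucleotide synthesis from 5 lower to 8 with all 14 libraries. No list count moved under DESeq2 size factors or upper-quartile scaling. Of the 239 genes named, DESeq2, limma-voom and the scalings ended no call. Leaving out the block ended the calls of Lpl, Cd40 and H2-Q7, with adjusted p by edgeR of 0.0504, 0.109 and 0.0724. Genes near 0 in one group rest on few counts, and their log2 changes are less certain than the calls.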
